A study of Mus musculus with 9 samples.

Results

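Most mitochondrial proteins are encoded in the nucleus, made in the cytosol as precursors and carried into the organelle by a chain of protein machines. The TOM complex forms the gate in the outer membrane, the SAM complex and its metaxin partners insert barrel proteins there, and small TIM chaperones escort hydrophobic precursors across the space between the membranes. The TIM22 complex inserts carrier proteins into the inner membrane, while the TIM23 complex and its motor pull presequence proteins into the matrix, where a peptidase trims them and the HSP60 and HSP10 chaperonin folds them. The genes of this machinery were taken by symbol from the expression tables: all *Timm* and *Tomm* symbols together with *Pam16*, *Dnajc19*, *Samm50*, *Mtx1*, *Mtx2*, *Grpel1*, *Grpel2*, *Hspa9*, *Hspd1*, *Hspe1*, *Pmpca*, *Pmpcb*, *Chchd4* and *Gfer*. The rule gave 41 of the 55335 entries listed for each library. Of these, 40 are protein-coding and 1, *Tomm6os*, is an antisense transcript that encodes no import protein. *Timmdc1*, an assembly factor of respiratory complex I, and *Tomm34*, a cytosolic cochaperone, carry family names but are no part of the translocases.

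RNA was measured by Smart-Seq2, an oligo-dT based method for small amounts of RNA, in mouse 8-cell embryos that had been injected with siRNA as zygotes. Control embryos received nontargeting siRNA, MFN1-KD embryos siRNA against *Mfn1*, which encodes a mitochondrial fusion protein of the outer membrane, and H3.3-KD embryos siRNA against *H3f3a* and *H3f3b*, the genes of histone variant H3.3. All embryos came from in vitro fertilized eggs of ICR mice, and each group had 3 libraries, each a pool of embryos (5 to 10 per group by the labels). siRNA lowers a transcript without removing the gene. The study calls the libraries of a group biological replicates, and the labels do not say what was separate between them, so p-values measure the spread between these libraries, which may in part be technical, and a lower level per library cannot be told apart from less of that RNA per cell or fewer cells that hold it.

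The targeted transcripts were reduced. *Mfn1* was listed at 51.6, 22.6 and 23.8 FPKM (fragments per kilobase, scaled to the fragments of the library) in control and at 9.54, 4.4 and 1.15 in MFN1-KD. In H3.3-KD, *H3f3a* fell from 1932 ± 293 to 149 ± 28.3 FPKM and *H3f3b* from 2988 ± 154 to 246 ± 70.3 FPKM (SD, n = 3). MFN1-KD replicate 3 listed the fewest genes above 0 (15577, against 19250 to 24820 in the other 8 libraries), and its depth, estimated from the spacing of low values, was also the lowest (about 14200000 fragments, against 16700000 to 19600000). Of the markers of the 8-cell embryo, *Dppa3* was abundant in every library (6244 to 20351 FPKM), whereas *Pou5f1* was at only 5.10 to 8.90 FPKM in control and 0.30 to 3.68 in MFN1-KD, against 63.1 to 392 in H3.3-KD. *Cdx2* was at or below 0.09 FPKM in control and *Sox2* at or below 0.10. The other 5 markers were expressed in every library, with 16.4 to 22.9 FPKM for *Nanog*, 30.4 to 39.1 for *Tead4*, 16.5 to 30.9 for *Tfap2c*, 34.8 to 58.4 for *Klf5* and 9.18 to 19.9 for *Cdh1* in control. The summed level of 3 blood markers was 77.8 to 96.7 FPKM in control, 18.3 to 77.9 in MFN1-KD and 9.07 to 14.6 in H3.3-KD, mostly *Hba-a1*. The summed levels of 8 cumulus and 6 sperm markers did not exceed 1.28 and 2.93 FPKM in any library. Several of these marker levels moved with the groups, and their part in the results below was not tested.

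Transcript levels of the tested import genes ranged in the control embryos from *Samm50* at 1.70 ± 0.849 FPKM to *Timm17a* at 3133 ± 515 FPKM (SD, n = 3). 3 genes stood well above the rest. *Timm17a* and *Timm23*, core subunits of the TIM23 channel, and *Tomm5*, a small subunit of the TOM pore, together made up 55.6 to 62.7% of the summed FPKM of all members in the control libraries. The median member stood at 68.6 to 75.1 FPKM in control, and 14 to 17 members were above 100 FPKM. The 2 members with the lowest levels, *Tomm40l*, a paralog of the pore gene, and *Tomm6os*, did not exceed 0.33 FPKM in any library. They were the only members below the minimum mean of 1 FPKM, and 39 members were tested.

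**Figure D1:**
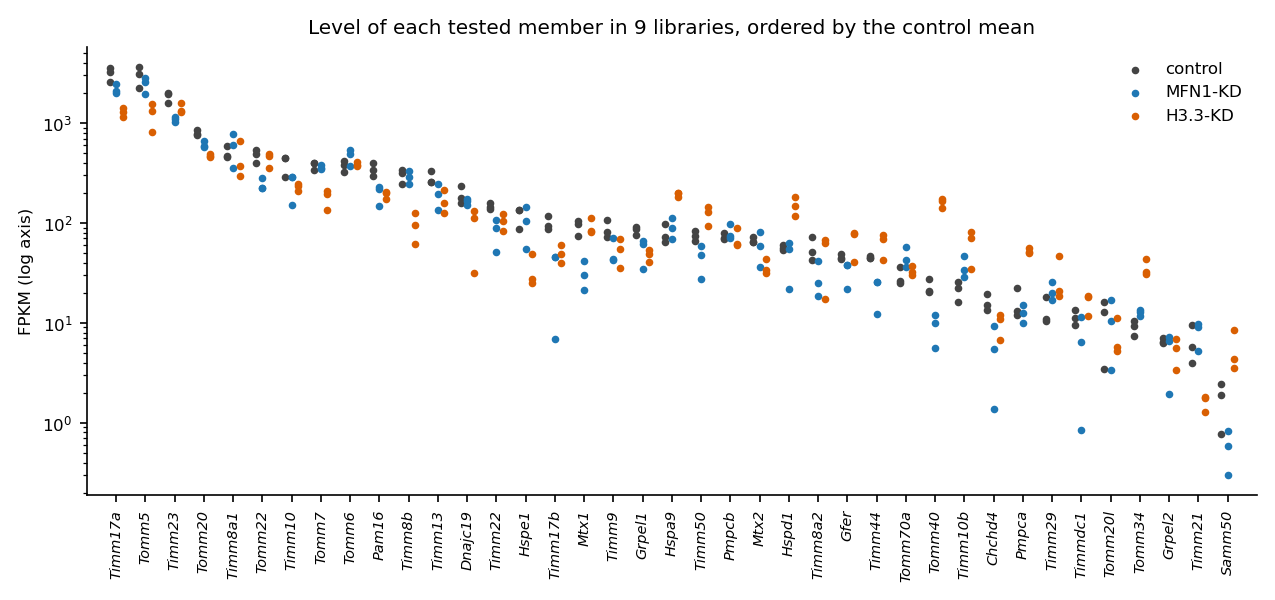
FPKM (log axis) of the 39 tested members in each of the 9 libraries, ordered by the control mean, with control in grey, MFN1-KD in blue and H3.3-KD in orange. *Timm17a*, *Tomm5* and *Timm23* sit at 814 FPKM or more in all 9 libraries, and *Samm50* is lowest in control.

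The summed FPKM of the members was 11475, 14099 and 14289 in control, 11041, 9983 and 8969 in MFN1-KD, and 8975, 7785 and 7738 in H3.3-KD. All 6 knockdown libraries lay below the 3 control libraries. As a share of all FPKM in the library the members took 1.03 to 1.09% in control, 0.745 to 0.937% in MFN1-KD and 0.804 to 0.939% in H3.3-KD. These sums follow the few most abundant members, whose combined part fell to 45.2 to 52.2% in H3.3-KD.

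Fold changes are given as differences of log2(FPKM + 1) with their standard error, from a limma model fitted to the 13011 genes whose mean reached 1 FPKM, and a gene was called when its Benjamini-Hochberg adjusted p over all genes was under 0.05. In MFN1-KD, 4 members fell and 0 rose: *Mtx1*, *Tomm40*, *Tomm22* and *Timm23*. This is 10.3% of the members tested, against 3.35% of all genes tested (1.15% higher and 2.20% lower). At an unadjusted p under 0.05 there were 16 members, where 23.2% of all genes passed. By the study's rule (more than 2-fold and unadjusted p under 0.05) there were 5, all lower, or 12.8%, where that rule took 14.1% of all genes. All MFN1-KD libraries lay below all control libraries for 18 members and above them for 2, a share of 51.3% where 28.2% of all genes were separated in this way (16.8% below and 11.4% above). The median change of the members was -0.43, beside -0.08 for all genes. Most members are well expressed, and among the 5933 genes whose mean reached 10 FPKM the share called was 11.1%, with 5 of 35 members called.

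The 4 calls in MFN1-KD lay close to the threshold, with adjusted p between 0.0333 and 0.0479. With 1 library left out, the number of called members was 0 without any 1 control library and without H3.3-KD replicate 1 or 2, 2 without MFN1-KD replicate 1 or H3.3-KD replicate 3, 3 without MFN1-KD replicate 2 and 1 (*Mtx1*) without MFN1-KD replicate 3. The H3.3-KD libraries enter this comparison only through the shared estimate of the spread. With control and MFN1-KD fitted alone, 0 members were called by limma. At an unadjusted p under 0.05 there were 15 members in that fit and 10 to 19 in the fits that left out 1 library.

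In H3.3-KD the members moved in both directions. 7 rose (*Hspa9*, *Hspd1*, *Pmpca*, *Samm50*, *Timm10b*, *Tomm34* and *Tomm40*) and 10 fell (*Grpel1*, *Hspe1*, *Mtx2*, *Pam16*, *Timm17a*, *Timm21*, *Timm8b*, *Tomm20*, *Tomm5* and *Tomm7*). Together they are 43.6% of the members tested, where 31.0% of all genes were called. By direction, 17.9% of the members rose and 25.6% fell, against 21.8% and 9.12% of all genes. Among the genes whose mean reached 10 FPKM, 43.7% were called, 26.8% higher and 16.9% lower, beside 6 and 11 of 35 members. By the study's rule 7 members were higher and 7 lower (35.9%, where 33.3% of all genes passed), and 24 had an unadjusted p under 0.05 (42.1% of all genes). All H3.3-KD libraries lay above all control libraries for 9 members and below for 17 (66.7%, against 53.4% of all genes, 34.5% above and 18.9% below). The median change of the members was -0.34 while that of all genes was 0.26, so that 27 of the 39 members lay below the median of all genes. Median-ratio scaling moved the median of all genes to -0.00, and relative to all genes the median member stood at -0.61 before it. The split of the calls depended on how libraries were scaled: 6 members rose and 16 fell with median-ratio scaling, 5 and 16 with upper-quartile scaling, and 4 and 15 once trends with GC content and length were removed. None of the 17 changed direction in any of the 18 alternatives run, and 10 were called in each of them: *Hspa9*, *Hspe1*, *Pmpca*, *Timm17a*, *Timm8b*, *Tomm20*, *Tomm34*, *Tomm40*, *Tomm5* and *Tomm7*. Without control replicate 2 the count was 11.

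**Figure D2:**
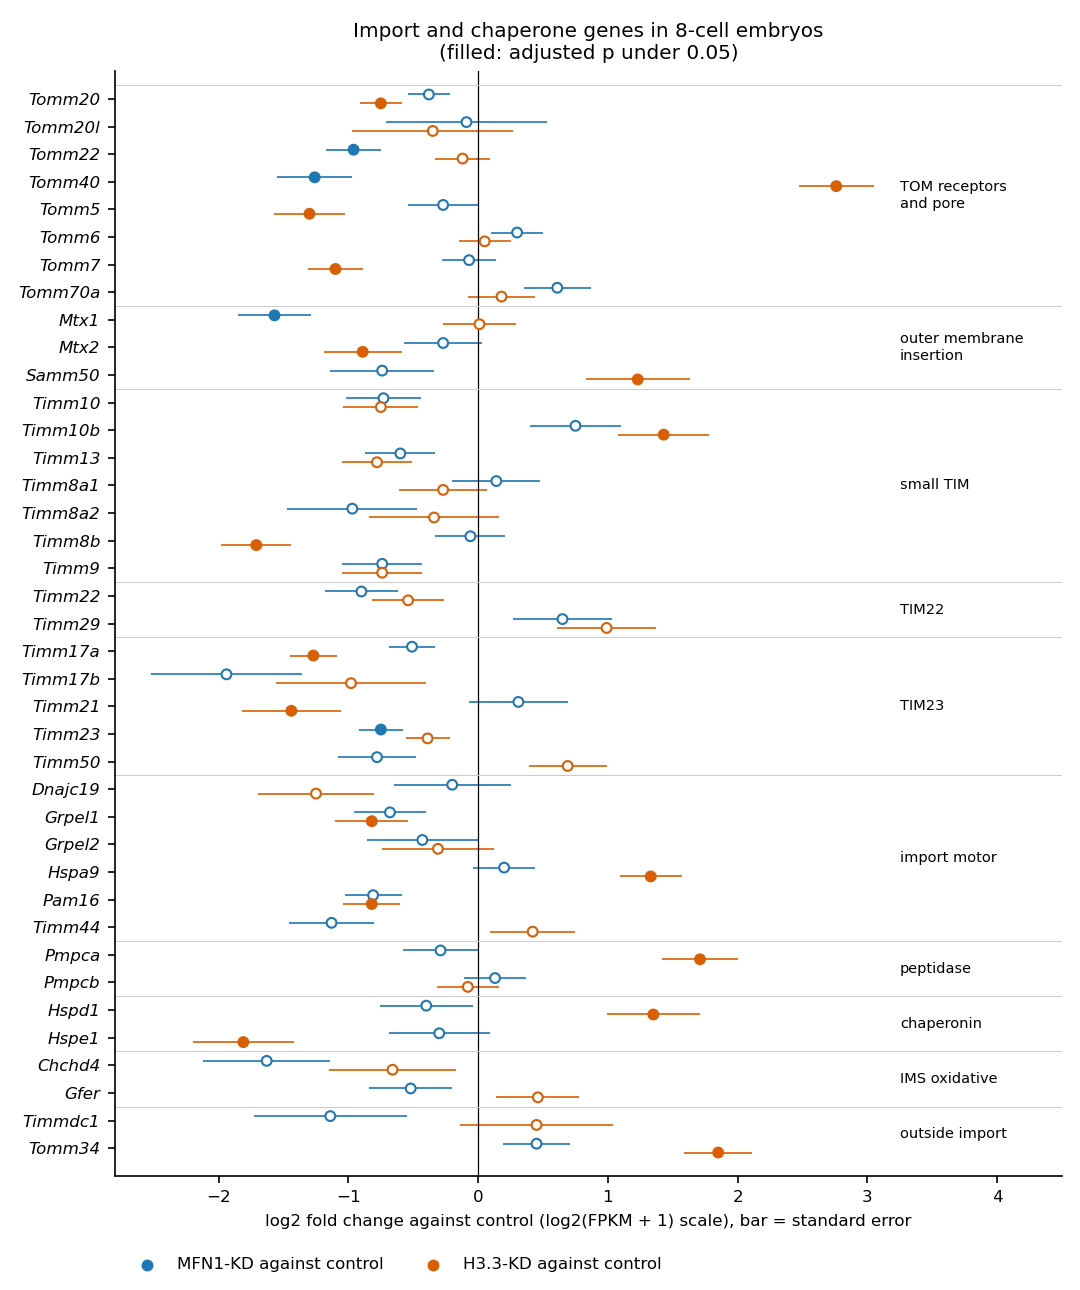
Difference of log2(FPKM + 1) from control for the 39 tested members in MFN1-KD (blue) and H3.3-KD (orange), grouped by role, with the standard error as a bar and filled points for adjusted p under 0.05. *Tomm40* lies at -1.26 for MFN1-KD against 2.76 for H3.3-KD, and the 4 filled MFN1-KD points all lie below 0.

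*Tomm40* encodes the barrel that forms the pore of the outer membrane gate. It was at 27.2, 20.6 and 20.9 FPKM in control, at 10.1, 12.1 and 5.63 in MFN1-KD and at 141, 166 and 175 in H3.3-KD. The 3 groups did not overlap, with MFN1-KD lowest and H3.3-KD highest. The mean was 7.01 times the control mean in H3.3-KD (log2 change 2.76 ± 0.29 (SE), adjusted p = 2.0e-04) and 40.5% of it in MFN1-KD (-1.26 ± 0.29, adjusted p = 0.0479). The rise in H3.3-KD passed the threshold in all 18 alternatives, with log2 changes from 1.82 upwards. The fall in MFN1-KD passed it in 1 of the 9 fits that left out 1 library, the one without MFN1-KD replicate 2. In the other 8, without any 1 control library, without MFN1-KD replicate 1 or 3 and without any 1 H3.3-KD library, the adjusted p was 0.058 to 0.163. A gene of the opposite strand, *Gm20512*, overlaps *Tomm40* but was at or below 0.10 FPKM in every library.

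*Tomm40* (mm10, chromosome 7, 19701313 to 19715438, minus strand) is shown with the bases just before its annotated start because its promoter is dense in CCAAT boxes, a short motif bound by the factor NF-Y. The 250 bases before the RefSeq start held 5 of them (both strands searched), and 70 of 32851 promoters of the same length (0.213%) held as many. The 241 bases that precede the annotated gene, chr7:19715439-19715679 on the minus strand in RefSeq's GRCm38.p6, are given 5′ to 3′ with CCAAT in capitals.
*Tomm40* promoter: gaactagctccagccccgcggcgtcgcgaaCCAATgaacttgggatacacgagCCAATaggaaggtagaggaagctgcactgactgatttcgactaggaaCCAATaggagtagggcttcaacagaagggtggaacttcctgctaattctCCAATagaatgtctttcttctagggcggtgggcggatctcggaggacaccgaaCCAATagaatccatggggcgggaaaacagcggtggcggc
Of 36 members with a promoter in the table, 11 (30.6%) held a CCAAT box within 250 bases before to 50 after the start, beside 43.7% of the tested genes in the table.

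In H3.3-KD, *Tomm40* was the only TOM gene called higher and 3 others were called lower. Of the 8 TOM genes tested these are 12.5% and 37.5%, beside 21.8% and 9.12% of all genes. *Tomm20*, the receptor that reads presequences, was at 755, 775 and 846 FPKM in control, 661, 575 and 584 in MFN1-KD and 470, 485 and 457 in H3.3-KD. The groups were separated in that order, and the fall was called in H3.3-KD (log2 change -0.75 ± 0.16, adjusted p = 0.00558) but not in MFN1-KD (-0.38 ± 0.16, adjusted p = 0.179). *Tomm22*, the central receptor that links the pore units, was at 395, 490 and 536 FPKM in control and at 279, 225 and 224 in MFN1-KD, with no overlap (-0.96 ± 0.21, adjusted p = 0.0427). That call was kept without MFN1-KD replicate 1 or H3.3-KD replicate 3 and was lost without any other single library (adjusted p 0.0628 to 0.178). In H3.3-KD, *Tomm22* was at 470, 351 and 493 FPKM, within the control range or below it (-0.12 ± 0.21).

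*Tomm5* and *Tomm7*, small subunits of the pore complex, fell in H3.3-KD. *Tomm5* was at 2228, 3612 and 3119 FPKM in control and at 1323, 814 and 1571 in H3.3-KD (-1.30 ± 0.27, adjusted p = 0.00554). *Tomm7* was at 342, 396 and 401 FPKM in control and at 208, 195 and 136 in H3.3-KD (-1.10 ± 0.21, adjusted p = 0.00311). No H3.3-KD library reached the control range for either gene, while the MFN1-KD libraries overlapped it for both. *Tomm6*, the remaining small subunit, was not called in either knockdown (control mean 374 FPKM, MFN1-KD 465, H3.3-KD 387). *Tomm70a*, the receptor for carrier precursors, was at 36.3, 24.96 and 26.4 FPKM in control, 36.0, 42.4 and 57.3 in MFN1-KD and 36.8, 32.1 and 29.9 in H3.3-KD, with overlapping groups and no call. The opposite-strand gene *Nit2*, which overlaps *Tomm70a*, was at 15.3 to 18.4 FPKM in control, 1.73 to 9.68 in MFN1-KD and 8.74 to 24.7 in H3.3-KD. *Tomm20l*, a paralog of *Tomm20*, varied from 3.45 to 16.4 FPKM among control libraries alone. The FPKM ratio of *Tomm40* to *Tomm20* was 0.0247 to 0.0360 in control, 0.00963 to 0.0211 in MFN1-KD and 0.300 to 0.382 in H3.3-KD. That ratio separated the 3 groups. The ratio of *Tomm40* to *Tomm22* was 0.0390 to 0.0688 in control, 0.0252 to 0.0538 in MFN1-KD and 0.300 to 0.473 in H3.3-KD. For this second receptor only H3.3-KD stood apart, and control and MFN1-KD overlapped.

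**Figure D3:**
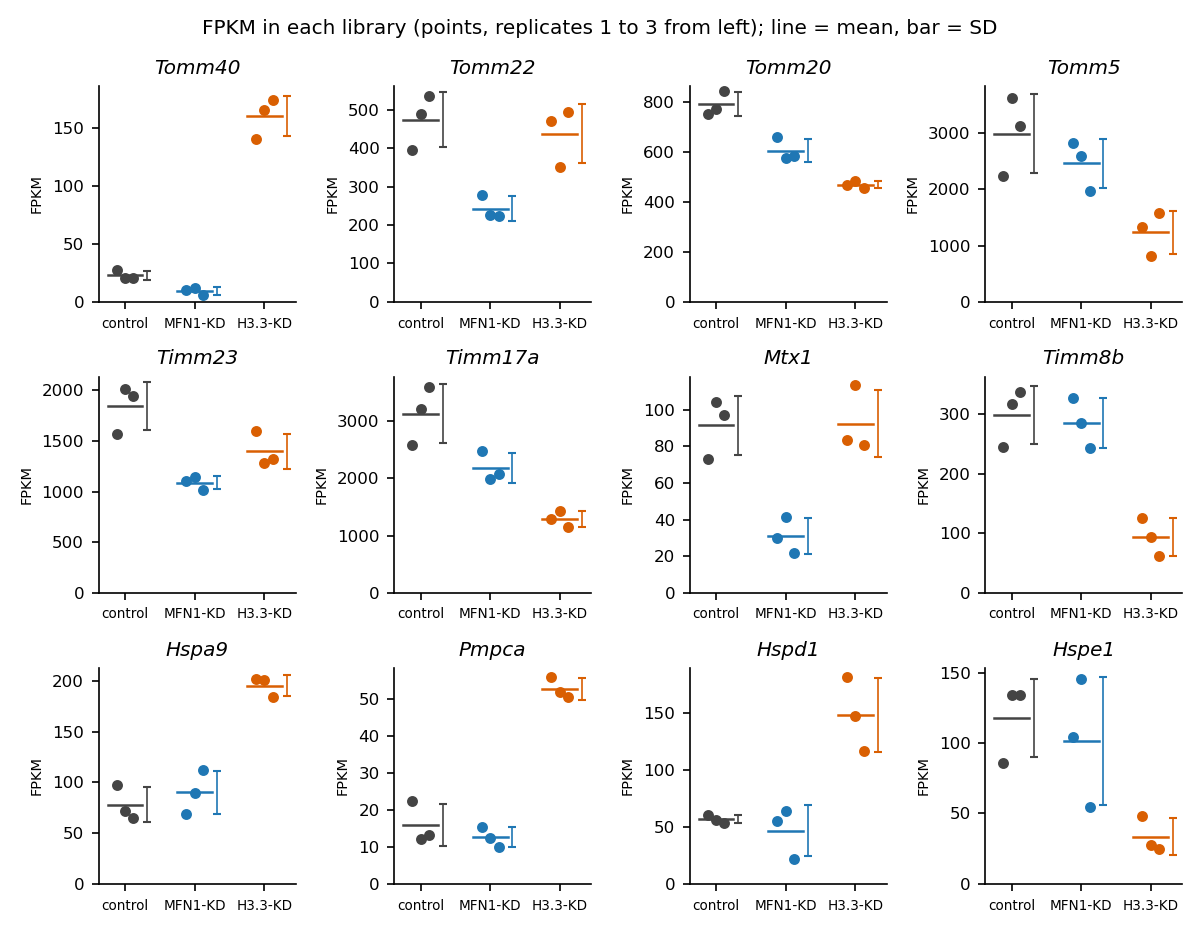
FPKM of 12 members in each library (linear axes from 0), with points for replicates 1 to 3 from left to right, a line at the group mean and a bar for the SD. The 3 H3.3-KD libraries lie above all control libraries for *Tomm40*, *Hspa9*, *Pmpca* and *Hspd1* and below them for *Tomm20*, *Tomm5*, *Timm17a*, *Timm8b* and *Hspe1*, and the MFN1-KD libraries lie below control for *Tomm40*, *Tomm22*, *Timm23* and *Mtx1*.

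Among the genes for insertion into the outer membrane, both metaxins changed, each in another knockdown. *Mtx1* was at 73.4, 104 and 96.9 FPKM in control, 30.1, 41.2 and 21.6 in MFN1-KD and 83.3, 113 and 80.8 in H3.3-KD. The MFN1-KD libraries were all lower than the other 6, at 33.8% of the control mean (-1.57 ± 0.28, adjusted p = 0.0333), and the difference between MFN1-KD and H3.3-KD was also called (-1.58, adjusted p = 0.00175). With 1 library left out, which was any control library, H3.3-KD replicate 1 or H3.3-KD replicate 2, the fall against control had an adjusted p of 0.0527 to 0.148. *Mtx1* had the highest GC content of all members, 61.7%. With trends in GC content and length removed its level in MFN1-KD no longer lay below that in H3.3-KD (0.09, adjusted p = 0.798), and it lay below control in H3.3-KD as well (-1.18, adjusted p = 0.00552). The gene that overlaps it on the other strand, *Thbs3*, was at or below 1.63 FPKM.

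*Mtx2* was at 72.0, 65.1 and 64.9 FPKM in control, 36.4, 58.2 and 81.1 in MFN1-KD and 43.4, 31.3 and 33.5 in H3.3-KD (-0.89 ± 0.30, adjusted p = 0.0423). It overlapped control in MFN1-KD and lay below it in H3.3-KD. *Samm50*, the barrel that inserts other barrels, was low throughout at 2.43, 0.77 and 1.91 FPKM in control, 0.30, 0.59 and 0.82 in MFN1-KD and 8.4, 3.50 and 4.35 in H3.3-KD (1.23 ± 0.40, adjusted p = 0.038). Both calls in H3.3-KD were lost in several fits that left out 1 library. For *Mtx2* these were the fits without any 1 control library, MFN1-KD replicate 2 or H3.3-KD replicate 2 or 3 (adjusted p 0.0529 to 0.128), and for *Samm50* those that left out 1 of control replicates 2 and 3 and H3.3-KD replicates 1 and 3 (0.0656 to 0.159). The *Samm50* call was also lost with a pseudocount of 0.1, without the filter on low values and with either scaling (adjusted p 0.0806 to 0.114), and with GC and length trends removed its change was 0.49 (adjusted p = 0.407).

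Of the 7 small TIM chaperone genes, MFN1-KD had 0 called by limma (2 at an unadjusted p under 0.05) and H3.3-KD had 2, in opposite directions. The 28.6% called in H3.3-KD was near the 31.0% of all genes. In MFN1-KD 3.35% of all genes were called and 23.2% had an unadjusted p under 0.05. *Timm8b* was at 244, 317 and 337 FPKM in control, 328, 286 and 244 in MFN1-KD and 126, 94.4 and 61.7 in H3.3-KD. It was far below both other groups in H3.3-KD, at 31.4% of the control mean (-1.71 ± 0.27, adjusted p = 0.00141). The opposite-strand gene *Nkapd1* was at 17.2 to 30.2 FPKM over all libraries. *Timm10b*, the small TIM held at the TIM22 complex, was at 22.5, 16.1 and 25.6 FPKM in control, 33.6, 47.2 and 29.1 in MFN1-KD and 80.5, 70.7 and 34.5 in H3.3-KD (1.43 ± 0.35, adjusted p = 0.012). Both knockdowns lay above control, and the call in H3.3-KD was lost without H3.3-KD replicate 2 (adjusted p = 0.0501) or control replicate 2 (0.0566) and with GC and length trends removed (0.83, adjusted p = 0.0999).

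*Timm9*, *Timm10* and *Timm13* encode subunits of the chaperone rings that carry precursors from the TOM pore onwards. *Timm10* was at 292, 443 and 445 FPKM in control, 290, 289 and 150 in MFN1-KD and 234, 247 and 208 in H3.3-KD. *Timm13* was at 333, 260 and 257 FPKM in control, 243, 194 and 136 in MFN1-KD and 215, 158 and 127 in H3.3-KD. *Timm9* was at 81.8, 72.2 and 108 FPKM in control, 43.7, 71.4 and 42.9 in MFN1-KD and 54.3, 35.3 and 69.9 in H3.3-KD. For all 3 genes every library of either knockdown lay below every control library, at 58.4 to 67.4% of the control mean, but none passed the threshold (adjusted p 0.163 to 0.22 in MFN1-KD and 0.0503 to 0.101 in H3.3-KD). Over all genes, all libraries lay below control for 16.8% (MFN1-KD) and 18.9% (H3.3-KD). *Timm8a1*, the partner of *Timm13*, was at 594, 463 and 464 FPKM in control, 604, 357 and 787 in MFN1-KD and 658, 372 and 295 in H3.3-KD, with overlapping groups. Its paralog *Timm8a2* was lower, at a control mean of 55.1 FPKM, and was not called.

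At the inner membrane, the 2 carrier translocase genes were not called by limma, with 1 at an unadjusted p under 0.05 in each knockdown. Of all genes, 3.35% (MFN1-KD) and 31.0% (H3.3-KD) were called, and 23.2% and 42.1% had an unadjusted p under 0.05. *Timm22*, its channel, was at 139, 160 and 145 FPKM in control, 106, 89.1 and 51.3 in MFN1-KD and 122, 104 and 82.7 in H3.3-KD. All 6 knockdown libraries lay below control (MFN1-KD -0.90 ± 0.28, adjusted p = 0.0983, and H3.3-KD -0.54 ± 0.28, adjusted p = 0.18). *Timm29*, a subunit needed for assembly of the complex, had log2 changes of 0.65 and 0.99, with adjusted p of 0.339 and 0.0716.

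In the TIM23 complex the most abundant members fell. *Timm23*, the channel, was at 1573, 2016 and 1941 FPKM in control, 1102, 1143 and 1017 in MFN1-KD and 1600, 1282 and 1322 in H3.3-KD. MFN1-KD was the lowest group without overlap (-0.75 ± 0.17, adjusted p = 0.0453), at 59.0% of the control mean, while H3.3-KD overlapped control (-0.39 ± 0.17). The call was lost in each of the 9 fits that left out 1 library of any group (adjusted p 0.0514 to 0.186), and the MFN1-KD and H3.3-KD levels were not called different (-0.36 ± 0.17, adjusted p = 0.116). *Timm17a*, which encodes the partner of TIM23 in the core of the complex, was at 2581, 3218 and 3600 FPKM in control, 2482, 1990 and 2079 in MFN1-KD and 1286, 1426 and 1148 in H3.3-KD. The 3 groups were separated, with H3.3-KD lowest at 41.1% of the control mean (-1.27 ± 0.18, adjusted p = 7.0e-04). In MFN1-KD its change was -0.51 ± 0.18, with an adjusted p of 0.127.

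*Timm17b*, the paralog of *Timm17a*, had the largest fitted change of any member in MFN1-KD (-1.94 ± 0.58), yet its adjusted p was 0.0892. Its FPKM there ranged from 6.91 in replicate 3 to 46.1, against 86.6 to 116 in control. *Timm21*, which couples TIM23 to the respiratory chain, was at 9.63, 5.68 and 4.0 FPKM in control and at 1.78, 1.80 and 1.27 in H3.3-KD (-1.44 ± 0.38, adjusted p = 0.0153, or 0.0535 without control replicate 1). *Timm50*, the receptor that hands presequences to the channel, was at 83.6, 74.8 and 65.6 FPKM in control, 47.5, 59.0 and 27.7 in MFN1-KD and 129, 144 and 93.0 in H3.3-KD. It lay below control in MFN1-KD and above it in H3.3-KD, neither of which was called. The difference between both knockdowns was called (-1.47 ± 0.30, adjusted p = 0.0036) except with GC and length trends removed (-0.09, adjusted p = 0.798).

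The import motor uses the matrix chaperone mortalin, encoded by *Hspa9*, and its cofactors. *Hspa9* was at 97.4, 72.2 and 64.7 FPKM in control, 69.3, 89.1 and 112 in MFN1-KD and 201, 201 and 183 in H3.3-KD. It overlapped control in MFN1-KD and was 2.5 times the control mean in H3.3-KD (1.33 ± 0.24, adjusted p = 0.0027), a call kept in all 18 alternatives. *Grpel1*, which encodes the nucleotide exchange factor that resets mortalin, went the other way: 75.1, 87.5 and 91.9 FPKM in control, 66.8, 61.3 and 34.8 in MFN1-KD and 48.6, 53.6 and 41.1 in H3.3-KD (-0.82 ± 0.28, adjusted p = 0.0447 in H3.3-KD). *Pam16*, a J-like regulator of the motor, was at 293, 340 and 398 FPKM in control, 218, 227 and 148 in MFN1-KD and 201, 205 and 174 in H3.3-KD (-0.82 ± 0.22, adjusted p = 0.0188 in H3.3-KD). Both lay below control in all 6 knockdown libraries and neither was called in MFN1-KD. The *Grpel1* call was lost without any 1 control or H3.3-KD library (adjusted p 0.0636 to 0.138) and the *Pam16* call when 1 of control replicates 2 and 3 and H3.3-KD replicate 3 was left out (0.0565 to 0.0841).

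*Timm44*, the anchor of the motor at the channel, was at 44.2, 46.3 and 45.0 FPKM in control, 25.4, 25.5 and 12.3 in MFN1-KD and 69.9, 75.6 and 42.3 in H3.3-KD. The control libraries agreed closely and MFN1-KD lay wholly below them, though its change was not called (-1.13 ± 0.33, adjusted p = 0.0835). The 2 knockdowns differed (-1.55 ± 0.33, adjusted p = 0.00434), but with GC and length trends removed the difference was -0.41 (adjusted p = 0.311). *Dnajc19*, a J protein of the motor, was not called (-1.25 ± 0.45, adjusted p = 0.0574 in H3.3-KD), nor was *Grpel2*, the paralog of *Grpel1*.

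The matrix processing peptidase is a dimer of the products of *Pmpca* and *Pmpcb*, and their transcripts behaved differently. *Pmpca* was at 22.3, 12.1 and 13.3 FPKM in control, 15.2, 12.5 and 9.89 in MFN1-KD and 56.0, 51.7 and 50.3 in H3.3-KD. It was 3.31 times the control mean in H3.3-KD (1.71 ± 0.29, adjusted p = 0.00196), in all 18 alternatives past the threshold. *Pmpcb*, the catalytic subunit, was at 79.4, 70.9 and 68.6 FPKM in control, 70.0, 97.9 and 74.5 in MFN1-KD and 88.9, 61.3 and 59.7 in H3.3-KD, with all groups overlapping. Per length, *Pmpca* stood at 0.170 to 0.281 of *Pmpcb* in control and at 0.629 to 0.844 in H3.3-KD. The gene that overlaps *Pmpca* on the other strand, *Inpp5e*, did not exceed 1.78 FPKM.

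The chaperonin pair *Hspd1* (HSP60) and *Hspe1* (HSP10, the lid of the folding chamber) lie head to head on chromosome 1. *Hspd1* was at 60.7, 55.7 and 53.7 FPKM in control, 54.9, 63.7 and 21.9 in MFN1-KD and 182, 148 and 117 in H3.3-KD. *Hspe1* was at 86.1, 134 and 134 FPKM in control, 105, 145 and 54.6 in MFN1-KD and 48.4, 27.7 and 24.9 in H3.3-KD. In H3.3-KD the first was above and the second below every control library, while in MFN1-KD both overlapped control. *Hspd1* rose by 1.35 ± 0.36 (adjusted p = 0.0179) and *Hspe1* fell by 1.81 on the log2 scale (SE 0.39, adjusted p = 0.00579). The *Hspe1* call was kept in all 18 alternatives. The *Hspd1* call was lost when 1 of control replicates 2 and 3 and H3.3-KD replicates 1 and 2 was left out (adjusted p 0.0528 to 0.0655), and also without the filter on low values, with upper-quartile scaling and with GC and length trends removed. Its log2 change was 0.93 or more in every alternative.

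The ratio of *Hspd1* to *Hspe1* FPKM was 0.705, 0.415 and 0.401 in control, 0.525, 0.438 and 0.400 in MFN1-KD and 3.75, 5.33 and 4.68 in H3.3-KD. The 3 H3.3-KD libraries stood apart, 9.28 times above control on the log2 mean. In a two-sided exact permutation test p was 0.10, the smallest that 3 libraries against 3 allow. *Hspd1-ps3*, a pseudogene copy of *Hspd1* that may share its reads, had means of 0.617 (control), 0.300 (MFN1-KD) and 3.22 FPKM (H3.3-KD). Neither the strand setting of the counting nor its handling of shared reads is given in the sources used here, and the 2 gene bodies overlap by 112 bases.

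**Figure D4:**
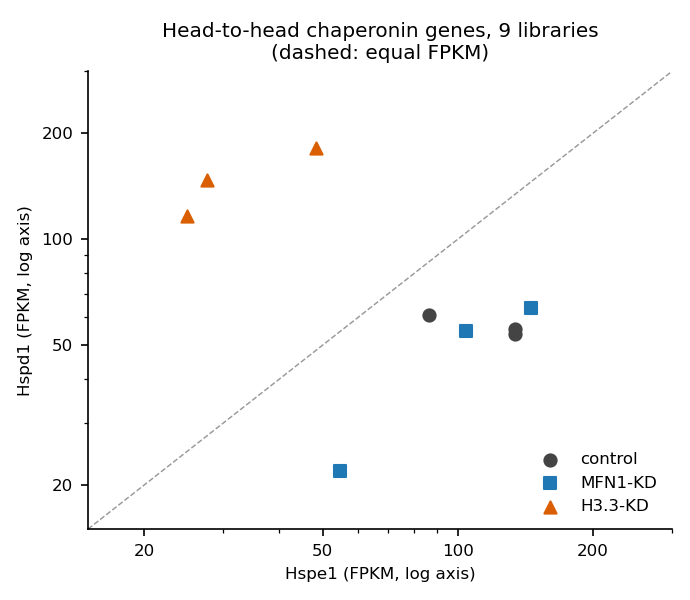
FPKM of *Hspd1* against *Hspe1* in the 9 libraries (both axes logarithmic), with circles for control, squares for MFN1-KD and triangles for H3.3-KD, and a dashed line where both are equal. The 6 control and MFN1-KD libraries lie under the line and the 3 H3.3-KD libraries above it.

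RefSeq gives 2 promoters for *Hspd1*, and only the start with the lowest coordinate was used here. Between that start and the *Hspe1* start lie 215 bases, chr1:55087933-55088147 in GRCm38.p6, with a GC content of 70.2%. The stretch is shared by a gene that rose and one that fell in H3.3-KD, and it holds 1 match to the core of the heat shock element, GAANNTTC, the site of heat shock factors, which begins 84 bases before the *Hspe1* start. The core with its flanks (chr1:55088053-55088082, plus strand, 5′ to 3′) is shown with the core in capitals. It falls within first exons that GENCODE gives to *Hspd1*.
*Hspd1* and *Hspe1* heat shock element core: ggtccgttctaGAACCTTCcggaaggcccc
This core occurred within 250 bases before to 50 after the start of 3 of 36 members (8.3%), the third being *Timm9*, and of 7.1% of tested genes with a promoter in the table. The site shown lies in the windows of both *Hspd1* and *Hspe1*, so this count holds it for each of them. Counted in that way, the share among the members was near that of other genes.

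The oxidative import route of the intermembrane space had no gene called by limma against control, where 3.35% (MFN1-KD) and 31.0% (H3.3-KD) of all genes were called. In MFN1-KD 1 of its 2 genes had an unadjusted p under 0.05, beside 23.2% of all genes. *Chchd4*, which encodes its receptor and oxidase MIA40, was at 13.4, 19.4 and 15.01 FPKM in control, 5.46, 9.36 and 1.38 in MFN1-KD and 11.03, 11.9 and 6.67 in H3.3-KD. All knockdown libraries lay below control (MFN1-KD -1.63 ± 0.49, adjusted p = 0.0897, and H3.3-KD -0.66 ± 0.49, adjusted p = 0.336). *Gfer*, which encodes the oxidase that recharges MIA40, was at 44.7, 43.5 and 49.0 FPKM in control, 22.01, 38.0 and 37.6 in MFN1-KD and 78.1, 80.1 and 40.6 in H3.3-KD. It was below control in MFN1-KD and overlapped it in H3.3-KD.

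*Tomm34* was at 9.40, 7.46 and 10.4 FPKM in control, 13.0, 13.3 and 11.7 in MFN1-KD and 32.3, 30.6 and 43.9 in H3.3-KD. Both knockdowns lay above control, and the rise in H3.3-KD (1.85 ± 0.26, adjusted p = 7.3e-04) was called in all 18 alternatives. *Timmdc1* was not called, with a control mean of 11.4 FPKM and 0.84 FPKM in MFN1-KD replicate 3.

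Set side by side, MFN1-KD and H3.3-KD differed in 17 members, 43.6% of those tested, where 38.6% of all genes differed (11.0% higher and 27.6% lower in MFN1-KD). 6 were higher in MFN1-KD (*Hspe1*, *Timm17a*, *Timm21*, *Timm8b*, *Tomm5* and *Tomm7*) and 11 were lower (*Gfer*, *Hspa9*, *Hspd1*, *Mtx1*, *Pmpca*, *Samm50*, *Timm44*, *Timm50*, *Tomm22*, *Tomm34* and *Tomm40*). Among the genes whose mean reached 10 FPKM, 50.2% differed, and 16 of 35 members. By the study's rule 16 members differed (41.0%, beside 40.1% of all genes), and 20 had an unadjusted p under 0.05 (48.2% of all genes). The libraries did not overlap for 21 members, 8 higher and 13 lower in MFN1-KD (53.8%, beside 47.9% of all genes, 14.8% and 33.1%). The control libraries enter this comparison only through the shared spread. The difference in *Tomm40* was -4.02 ± 0.29 (adjusted p = 2.3e-05), and those in *Pmpca* and *Timm8b* were -2.00 ± 0.29 (5.8e-04) and 1.64 ± 0.27 (0.0012). The split of calls was 12 higher and 8 lower with median-ratio or upper-quartile scaling and 8 and 5 with GC and length trends removed. With those trends removed the differences in *Tomm34* (-1.40 to -0.09), *Tomm22* (-0.84 to -0.48) and *Timm17a* (0.76 to 0.49) were no longer called. The *Tomm22* difference (-0.42 and -0.35) and that in *Hspa9* (-0.72 and -0.65) were not called with median-ratio and upper-quartile scaling, nor was that in *Gfer* (-0.57 and -0.50). Leaving out 1 library, the *Gfer* call was lost when it was 1 of control replicates 2 and 3, MFN1-KD replicate 1 and H3.3-KD replicates 1 and 2 (adjusted p 0.0508 to 0.122) and the *Tomm5* call without H3.3-KD replicate 2 (0.0504).

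GC content and length of the transcripts were compared between members called in either direction and members not called. Members that rose in H3.3-KD had a median GC content of 48.5% and a median length of 3049 bases in the longest transcript, those that fell 45.3% and 2068 bases, and those not called 51.2% and 1696 bases. Across the 39 members, Spearman's rho of the log2 change with GC content was 0.40 (H3.3-KD) and -0.34 (MFN1-KD), beside 0.34 and -0.22 across the 12803 genes with both values. These are descriptions over genes that share libraries, and genes are not independent replicates. With GC content, rho of the members thus had the same sign as that of all genes. With length, rho of the members was 0.28 (H3.3-KD) and 0.07 (MFN1-KD), beside 0.18 and 0.28 across all genes. The part of these trends in the calls was not tested beyond the fits with them removed.

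**Figure D5:**
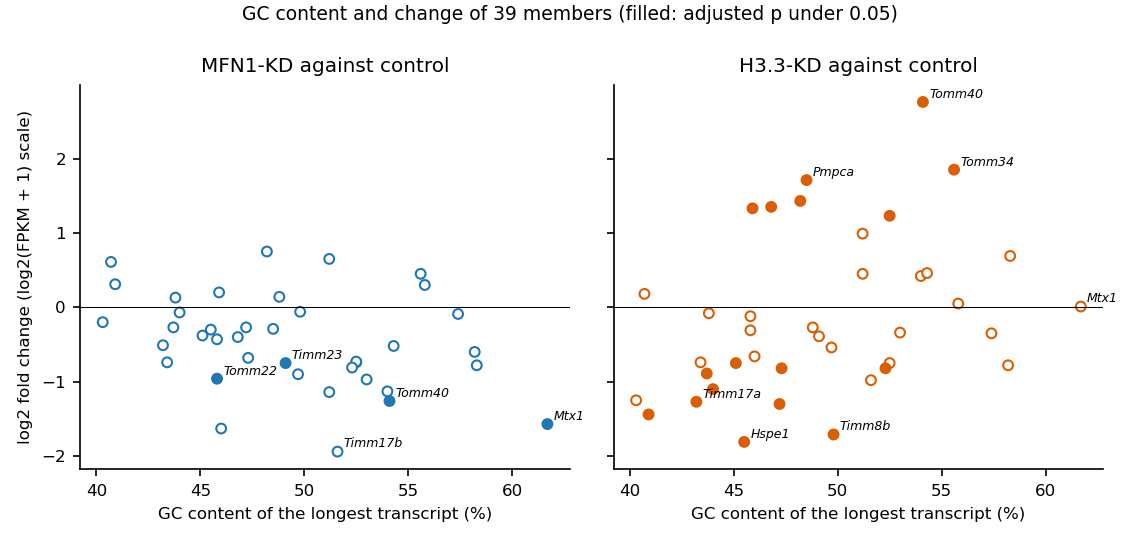
Difference of log2(FPKM + 1) from control against the GC content of the longest transcript for the 39 tested members, in MFN1-KD (left) and H3.3-KD (right), with filled points for adjusted p under 0.05. *Mtx1*, at 61.7% GC, is low in MFN1-KD and near 0 in H3.3-KD, and *Tomm40* is the highest point in H3.3-KD.

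A motif of ETS factors such as GABP, a regulator of many mitochondrial genes, was present in a number of the promoters. CCGGAAGT, on either strand within 250 bases before to 50 after the start, occurred in 9 of the 36 members with a promoter in the table (25%), in 10.2% of the tested genes there and in 4.3% of all genes there. The 9 were *Mtx2*, *Pmpcb*, *Timm10*, *Timm10b*, *Timm23*, *Timm29*, *Timm8a2*, *Timmdc1* and *Tomm70a*. 3 of these 9 were called in a knockdown against control, *Timm23* in MFN1-KD and *Mtx2* and *Timm10b* in H3.3-KD. Of all members tested, MFN1-KD had calls for 10.3% and H3.3-KD for 43.6%, beside 3.35% and 31.0% of all genes. The 3 of 9 joins both knockdowns, so neither pair of shares is its like counterpart. Whether the motif goes with the calls was not tested. The 30 bases around each match of the 3 called genes are shown 5′ to 3′ from RefSeq's GRCm38.p6, with the motif in capitals. They are *Timm23* (chr14:32201921-32201950, plus strand), *Mtx2* (chr2:74825776-74825805 and chr2:74825807-74825836, plus strand) and *Timm10b* (chr7:105640465-105640494, minus strand).
*Timm23*: ctgtgtgcggcCCGGAAGTgggaagcgcga
*Mtx2*, upstream match: gggcggagcagCCGGAAGTgccggcgcgcg
*Mtx2*, downstream match: tgtcagcgacgCCGGAAGTgcttggtcggc
*Timm10b*: agtcgccCCGGAAGTaaactctcactactc
*Timm23* fell in MFN1-KD, *Mtx2* fell and *Timm10b* rose in H3.3-KD. The motifs of NRF1 (GCGCATGCG) and YY1 (AAGATGGCG) occurred in 1 and 2 members, *Timm13* for the first and *Mtx1* and *Timm50* for the second, or 2.8% and 5.6%, against 4.5% and 3.9% of the tested genes there.

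Genes of the same pathway outside the set were taken from fixed lists. Of 18 other import and sorting genes, MFN1-KD had 0 calls (1 at an unadjusted p under 0.05 in limma), beside 3.35% (23.2%) of all genes. In H3.3-KD, 2 rose (*Trap1*, a matrix HSP90, and *Xpnpep3*, an aminopeptidase that trims imported proteins) and 4 fell (*Dnajc15*, *Romo1*, *Hscb* and *Immp1l*), 33.3% of the list, where 31.0% of all genes were called. *Dnajc15*, a J protein of the import motor, went from 703 to 239 FPKM (-1.58 ± 0.21, adjusted p = 5.4e-04). Of 10 mitochondrial proteases, which degrade unfolded or surplus proteins, 5 rose in H3.3-KD (*Afg3l1*, *Afg3l2*, *Clpx*, *Htra2* and *Spg7*) and 0 fell, where 21.8% of all genes rose and 9.12% fell. In MFN1-KD, *Clpp*, the proteolytic partner of *Clpx*, fell from 142 to 50.3 FPKM (-1.58 ± 0.36, adjusted p = 0.047). This is 10.0% of the list, where 2.20% of all genes fell, and the adjusted p was close to the threshold. Genes of the fixed lists were not followed through the alternatives, so the effect of scaling on their calls was not tested.

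Cytosolic chaperones deliver precursors to TOM, and 6 of 11 rose in H3.3-KD (*Dnaja1*, *Dnaja4*, *Dnajb1*, *Hsp90ab1*, *Hspa8* and *Stip1*) while *Hsp90aa1* fell (54.5% and 9.09%, beside 21.8% and 9.12% of all genes). *Dnaja4* was near the floor, with means of 0.23 FPKM in control and 2.62 in H3.3-KD, and *Dnaja1* was close to the threshold (adjusted p = 0.0425). *Hspa8*, which carries many precursors, went from 1802 to 3296 FPKM (0.86 ± 0.20, adjusted p = 0.00935), and *Stip1*, which bridges it to HSP90, from 366 to 1146 FPKM (1.65 ± 0.29, adjusted p = 0.00212). The pair of HSP90 genes moved apart, *Hsp90ab1* by 1.21 ± 0.20 and *Hsp90aa1* by -1.75 ± 0.36. In MFN1-KD 0 of the 11 were called by limma, with 4 at an unadjusted p under 0.05, beside 3.35% and 23.2% of all genes. Of 8 listed regulators, some of stress responses and others of mitochondrial genes, 6 were tested. *Hsf1* (6.91 to 30.8 FPKM), *Nrf1* (40.2 to 127 FPKM) and *Yy1* (27.7 to 57.4 FPKM) rose in H3.3-KD (50%, beside the same 21.8%). *Yy1* (to 86.0 FPKM, adjusted p = 0.0404) rose in MFN1-KD (16.7%, beside 1.15% of all genes). *Atf4* (0.64 ± 0.23, adjusted p = 0.0592) and *Ddit3* (1.02 ± 0.42, adjusted p = 0.0888) were not called in H3.3-KD. In MFN1-KD every library lay below control for *Atf4*, without a call (-0.69 ± 0.23, adjusted p = 0.119). *Gabpa* was called in neither. *Atf5* and *Ppargc1a* were below the minimum level, with *Ppargc1a* listed at 0 in every library.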

How the data were processed

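Libraries were made by the authors with Smart-Seq2, trimmed with cutadapt 1.16 and mapped with STAR to mm10. Each deposited file lists FPKM values, made by the authors, by gene symbol, and 216 of the 55335 entries share their symbol with another. The program that made them, the annotation and the strand setting are not given in the sources used here. No counts were used, so the test for FPKM, limma 3.58.1 in R 4.3.3 (trend and robust options), was applied to log2(FPKM + 1) of all 9 libraries without covariates. This scale understates the change of low genes. Genes whose mean reached 1 FPKM were kept (13011), p-values were adjusted by Benjamini-Hochberg over all of them, and 18 alternatives were run for each of 3 comparisons. The pipeline was tested on simulated data. FPKM per library was given for members called in a knockdown against control and for a fixed list of subunits, and other members were summarised. The genes, lists and tests were chosen with earlier results of these data known. Columns of other samples numbered 0. Positions, GC content and lengths came from GENCODE M21 and promoters from RefSeq (36 of 41 members matched). In the annotation, genes on the opposite strand overlap the bodies of 24 members. Levels of such genes were given for some of these members only. Python 3.11.15, pandas 2.3.3, numpy 2.4.6 and matplotlib 3.10.9 were used. Groups of 3 libraries limit the precision of every value.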

Additional observations from a re-analysis of the deposited data

How the results depend on the processing

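The number of members called in MFN1-KD (4) was the least stable count. It was 0 with no low-value filter, 0 when only the 6 libraries of the comparison were fitted, 2 with median-ratio scaling, 2 with upper-quartile scaling, 2 with GC and length trends removed, 9 with library weights and 0 to 3 with 1 library left out. The H3.3-KD count (17) was 28 with library weights and 11 to 21 with 1 library left out, and between the knockdowns (17) it was 16 to 19. Relative to all genes, the median change of the members was -0.48 to -0.32 (MFN1-KD), -0.77 to -0.48 (H3.3-KD) and 0.04 to 0.34 (MFN1-KD against H3.3-KD) with 1 library left out. Without a filter it was -0.35 for H3.3-KD and -0.11 between the knockdowns, and with a minimum of 10 FPKM the latter was -0.00. The labels do not say whether same-numbered libraries were paired. Their deviations from the group means correlated at -0.053 to 0.158, which shows no clear shared effect but cannot settle the pairing. With the replicate number as a block, 0 members were called by limma in MFN1-KD (15 at an unadjusted p under 0.05), 16 in H3.3-KD and 18 between the knockdowns.

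Only a called member can lose its call. The 4 members called in MFN1-KD were each run in 18 alternatives and lost the call in 48 values. The call was kept in 10 alternatives for *Mtx1*, 6 for *Tomm40*, 5 for *Tomm22* and 3 for *Timm23*. For H3.3-KD the 17 called members lost it in 39 values. Between the knockdowns only the 17 called members were followed, and 19 of 304 values lost the call and 2 others turned direction. Over all tested members, 19 of 698 values turned direction for MFN1-KD against control, beside 23 of 698 for H3.3-KD. None of those that turned against control had been called in that comparison, but *Gfer* and *Mtx1* had been called between the knockdowns. With 1 library left out they ranged in MFN1-KD over -0.69 to 0.05 for *Grpel2*, -0.69 to 0.06 for *Hspd1*, -0.61 to 0.09 for *Hspe1*, -0.54 to 0.03 for *Mtx2*, -0.01 to 0.23 for *Pmpcb*, -0.12 to 0.45 for *Timm8a1*, -0.20 to 0.04 for *Timm8b* and -0.69 to 0.49 for *Tomm20l*. In H3.3-KD they ranged over -0.14 to 0.11 for *Mtx1*, -0.26 to 0.02 for *Pmpcb*, -0.68 to 0.28 for *Timm8a2*, -0.95 to 0.04 for *Tomm20l*, -0.24 to 0.04 for *Tomm22* and -0.04 to 0.13 for *Tomm6*. Median-ratio scaling gave 0.00 for *Timm8b* in MFN1-KD and -0.33 for *Mtx1*, -0.30 for *Tomm6* and -0.16 for *Tomm70a* in H3.3-KD. Upper-quartile scaling gave -0.41, -0.38 and -0.24 for the same genes in H3.3-KD and -0.00 for *Timm44*. Removal of GC and length trends gave -0.02 for *Pmpcb*, 0.29 for *Timm8b*, 0.33 for *Tomm20l*, 0.00 for *Tomm5* and 0.20 for *Tomm7* in MFN1-KD. For H3.3-KD the values were -0.21 for *Gfer*, -1.18 for *Mtx1*, -0.54 for *Timm44*, -0.20 for *Timm50* and -0.42 for *Tomm6*, and between the knockdowns 0.18 for *Gfer* and 0.09 for *Mtx1*. Library weights gave 0.05 for *Pmpca* and 0.10 for *Tomm20l* in MFN1-KD, and -0.00 for *Mtx1*, 0.05 for *Timm8a2* and 0.09 for *Tomm20l* in H3.3-KD. The cause was not tested. Depth was estimated from FPKM and not counted, and 3 libraries a group limit what can be called.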
